A study of Drosophila melanogaster with 46 samples.

Results

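The telomeric retrotransposons HeT-A, TAHRE and TART of Drosophila melanogaster are described here through the small RNAs that match them in ovarian somatic cells (OSC). They were taken by name from a deposited table of transposable elements (TEs), as every row called HeT-A or TAHRE or with a name that begins with TART. This gave 5 of the 124 rows, HeT-A, TAHRE, TART-A, TART-B and TART-C, and no row was left out for a low value. The values are small RNA reads matched to each TE on either strand, in RPM (reads per 1000000 of the library).

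Drosophila has no telomerase, and these non-LTR retrotransposons of the jockey clade maintain its chromosome ends by adding copies of themselves there. HeT-A encodes a Gag protein but no reverse transcriptase, TART encodes both, and TAHRE has HeT-A-like sequence together with a reverse transcriptase. In the ovary the germline silences them with piRNAs, small RNAs that guide Argonaute proteins such as the nuclear protein Piwi to TE transcripts. Antisense piRNAs can pair with a TE transcript, while sense small RNAs have the transcript's own sequence.

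OSC are a cultured line derived from the somatic follicle cells of the ovary, and they have Piwi and a piRNA pathway but no germ cells. The libraries are 2 of small RNAs recovered with CG9754 (CG9754-IP), 2 of small RNAs recovered with Piwi (Piwi-IP) and 2 of input small RNA. CG9754, also called Silencio, is placed by the series between Piwi and the factors that form heterochromatin. The protocol shared by all samples describes siRNA transfection, but no siRNA or genotype is named for these 6 libraries, no label gives the origin of the antibodies or a tag, and no mock precipitate is among the libraries used here. The remaining 40 samples were not used here.

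The implied library totals were 26138400 and 19874200 reads for CG9754-IP, 15064800 and 12493500 for Piwi-IP, and 18861900 and 15327200 for input. The labels do not say whether replicate libraries stem from separate cultures, so p-values measure only the spread between these libraries, which may be technical. Over all TEs the CG9754-IP libraries differed from each other more than the other pairs did, where chi-square over its degrees of freedom came to 480.4 for antisense reads, against 15.6 in Piwi-IP and 11.2 in input. The line's label was checked on the TEs: gypsy, ZAM, gtwin and Idefix, known as targets of the follicle-cell pathway, together had 52952 and 58009 antisense RPM in the CG9754-IP libraries, 65038 and 63293 in Piwi-IP and 55933 and 54958 in input. The 6 TEs used as germline markers, HeT-A and TAHRE among them, together had 62.3 and 54.7 in CG9754-IP, 52.9 and 53.9 in Piwi-IP and 43.0 and 43.1 in input. The TART elements were not on that list, so its low sum does not cover them. TART antisense RPM came to 2726 and 2480 in CG9754-IP, 3509 and 3426 in Piwi-IP and 2944 and 2894 in input.

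The 5 elements fell into a pair with few small RNAs and a trio with many antisense ones. TART-C, the most abundant, had 1488 and 1313 antisense RPM in the CG9754-IP libraries, 1957 and 1896 in Piwi-IP, and 1638 and 1606 in input. TART-A had 635 and 568 in CG9754-IP, 784 and 777 in Piwi-IP, and 673 and 665 in input. TART-B had 602 and 599 in CG9754-IP, 767 and 753 in Piwi-IP, and 633 and 622 in input. For all 3 TART elements every CG9754-IP library lay below every input library, and every Piwi-IP library lay above it.

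HeT-A and TAHRE were lower by more than 2 orders of magnitude. HeT-A had 5.55 and 4.58 antisense RPM in CG9754-IP (145 and 91 reads), 2.19 and 2.16 in Piwi-IP (33 and 27 reads), and 2.12 and 2.74 in input (40 and 42 reads). TAHRE had 4.67 and 4.43 in CG9754-IP (122 and 88 reads), 0.863 and 0.800 in Piwi-IP (13 and 10 reads), and 1.17 and 1.57 in input (22 and 24 reads). For both elements the CG9754-IP libraries were above all 4 others. All these levels were above the limit of 0.115 to 0.240 RPM that 0 reads would allow per library (a floor of 3 reads). Within each group the replicates of HeT-A and TAHRE had overlapping exact Poisson 95% intervals on either strand. Such intervals and limits describe counting error alone, because the reads carry no molecular identifiers. In bulk libraries like these, fewer cells with a small RNA and less of it per cell cannot be told apart.

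On the sense strand the 5 elements were close to each other in input and in Piwi-IP, except for TART-C, which was lowest. TART-C had 9.83 and 11.1 sense RPM in the CG9754-IP libraries, 1.46 and 2.08 in Piwi-IP, and 1.59 and 1.30 in input. TART-B had 11.3 and 10.8 in CG9754-IP, 3.12 and 4.80 in Piwi-IP, and 3.66 and 3.39 in input. TART-A had 8.26 and 9.61 in CG9754-IP, 4.12 and 5.20 in Piwi-IP, and 4.19 and 4.50 in input. For these 3 elements every CG9754-IP library was above every other library. HeT-A had 5.78 and 5.03 sense RPM in the CG9754-IP libraries, 5.11 and 3.20 in Piwi-IP, and 4.93 and 4.57 in input. TAHRE had 5.89 and 4.08 in CG9754-IP, 4.78 and 4.56 in Piwi-IP, and 4.98 and 5.55 in input. The sense values of HeT-A in CG9754-IP overlapped those in Piwi-IP and lay just above those in input, and those of TAHRE overlapped both.

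**Figure D1:**
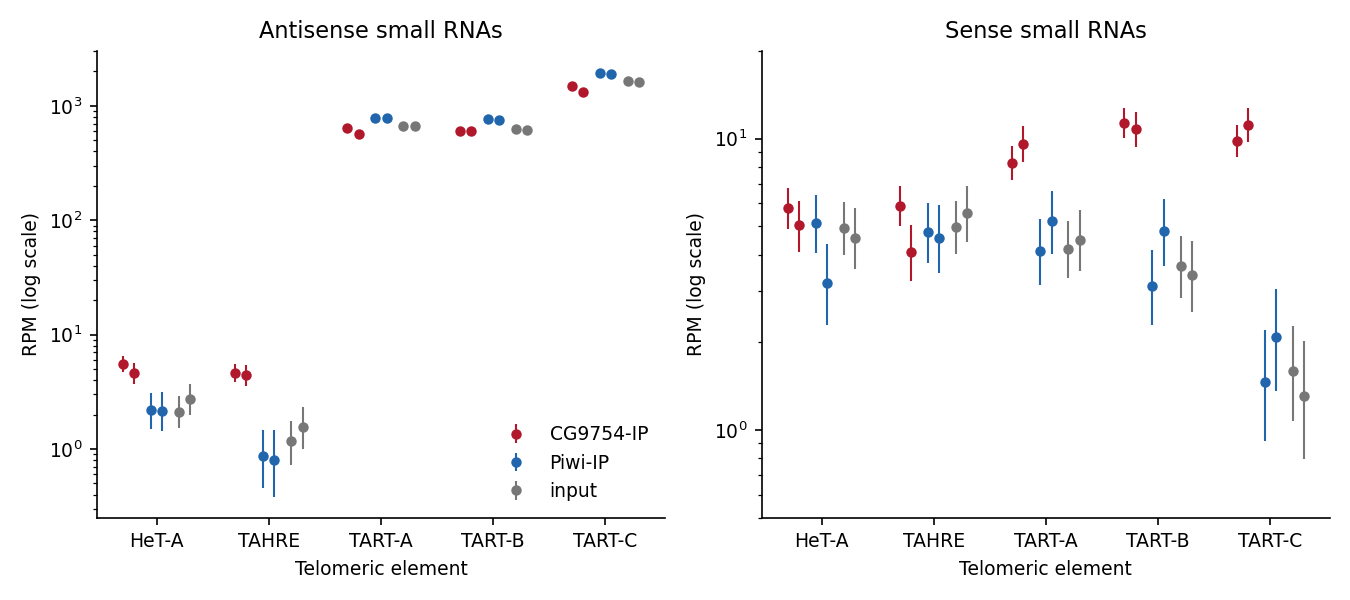
Small RNA levels of the 5 telomeric elements in each library, antisense on the left and sense on the right, in RPM on log axes with different ranges; each point is 1 library and its bar the exact Poisson 95% interval (on the antisense TART points it is smaller than the marker). HeT-A and TAHRE stand higher in CG9754-IP on the antisense strand, and the TART elements on the sense strand.

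In order of antisense level, TART-C came first in every kind of library, followed by TART-A and TART-B, then HeT-A and TAHRE. TART-A and TART-B did not differ beyond their spread in CG9754-IP, at 602 ± 47.5 and 600.4 ± 2.28 RPM (mean ± SD, n = 2, as for all means that follow), while in Piwi-IP, at 781 ± 4.84 and 760.0 ± 9.84, and in input, at 669 ± 5.55 and 627 ± 7.76, their libraries did not overlap. HeT-A and TAHRE were 5.06 ± 0.68 and 4.55 ± 0.17 RPM in CG9754-IP and overlapped there, and were 2.18 ± 0.021 and 0.832 ± 0.044 in Piwi-IP and 2.43 ± 0.44 and 1.37 ± 0.28 in input, where they did not. Among the 124 TEs, TART-C ranked 26 in CG9754-IP and 24 in Piwi-IP and in input, TART-A ranked 31 and TART-B 32 in all 3, HeT-A ranked 87 in CG9754-IP, 104 in Piwi-IP and 103 in input, and TAHRE ranked 90 in CG9754-IP, 116 in Piwi-IP and 107 in input. These levels are per element and not per length, so the order may partly follow the length of the sequences to which reads were matched.

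TART small RNAs were nearly all antisense. The antisense share of TART-C was 99.3% ± 0.13 in CG9754-IP, 99.9% ± 0.025 in Piwi-IP and 99.9% ± 0.011 in input. HeT-A and TAHRE instead had more sense than antisense reads in Piwi-IP and input. The antisense share of HeT-A was 48.3% ± 0.95 in CG9754-IP, 35.1% ± 7.28 in Piwi-IP and 33.8% ± 5.25 in input. That of TAHRE was 48.1% ± 5.56 in CG9754-IP, 15.1% ± 0.26 in Piwi-IP and 20.5% ± 2.16 in input. In CG9754-IP the exact binomial 95% intervals of both elements included 50% in each library, with the widest from 44.3% to 59.8% for TAHRE in replicate 2. More sense than antisense reads were found for 35 of 122 TEs with reads in Piwi-IP and for 35 of 122 in input, so HeT-A and TAHRE share this with other elements of the table.

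Piwi-IP was set against input to describe the small RNAs bound by Piwi. TART-B was higher, with 760.0 ± 9.84 RPM in the Piwi-IP libraries and 627 ± 7.76 RPM in the input libraries, a log2 change of 0.28 ± 0.036 (SE) on the scale of RPM + 1 (limma, adjusted p = 0.0437). It was the 1 telomeric element called on the antisense strand, where 2.42% of all TEs were called, 0.806% as higher (TART-B alone) and 1.61% as lower. TART-A (0.22, adjusted p = 0.137) and TART-C (0.25, adjusted p = 0.137) had changes of similar size, while HeT-A (−0.11, adjusted p = 0.678) and TAHRE (−0.36, adjusted p = 0.132) had negative values. The median of all TEs was 0.16 here. It was 0.00 when libraries were brought to the same TE total, which left TART-B at 0.11 (adjusted p = 0.486).

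The TART-B call in Piwi-IP rested on its setting. It was lost without either Piwi-IP library or either input library (adjusted p between 0.192 and 0.410), with a filter of 10 RPM, with a pseudocount of 10 and with either rescaling, and its adjusted p ranged from 0.0106 to 0.961 over the alternatives. Without CG9754-IP replicate 1 or without replicate 2, which share the estimate of the spread, all 3 TART elements were called higher, and so were 35 of all 124 TEs in either case. On the sense strand 0 of the 5 elements were called by limma against 2.42% of all TEs, 0 of them had an unadjusted p under 0.05, and their log2 changes lay between −0.18 and 0.17.

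CG9754-IP was set against Piwi-IP to compare the small RNAs of the precipitates. TAHRE and HeT-A antisense small RNAs rose. TAHRE averaged 4.55 ± 0.17 RPM with CG9754 and 0.832 ± 0.044 RPM with Piwi, which is 5.47-fold higher (counting 95% interval 3.55 to 8.82 from pooled reads), with a log2 change of 1.60 ± 0.0997 (adjusted p = 0.00108). HeT-A averaged 5.06 ± 0.68 RPM with CG9754 and 2.18 ± 0.021 RPM with Piwi, 2.33-fold higher (counting interval 1.77 to 3.18), with a log2 change of 0.93 ± 0.13 (adjusted p = 0.00712). The log2 changes are smaller than the RPM ratios because of the pseudocount of 1 RPM. At these low levels their size follows the pseudocount: with 0.1 RPM they were 2.32 for TAHRE and 1.18 for HeT-A, and with 10 RPM 0.43 for TAHRE and 0.31 for HeT-A, called in each case. Of all 124 TEs, 41.9% were called, 8.87% as higher and 33.1% as lower, and by size of change TAHRE ranked 3 and HeT-A 8 from the top.

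The same comparison gave lower values for TART antisense small RNAs. TART-C averaged 1401 ± 124 RPM with CG9754 and 1927 ± 43.6 RPM with Piwi (log2 change −0.46 ± 0.071, adjusted p = 0.00829). TART-A had 602 ± 47.5 with CG9754 against 781 ± 4.84 with Piwi (−0.38 ± 0.064, adjusted p = 0.0106), and TART-B 600.4 ± 2.28 with CG9754 against 760.0 ± 9.84 with Piwi (−0.34 ± 0.036, adjusted p = 0.00337). The median over all TEs was −0.26. By size of change TART-B ranked 70, TART-A 74 and TART-C 85 from the top of 124 TEs.

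Rescaling separated the elements. With the same TE total in each library the median of all TEs was 0.00, 11 higher and 41 lower calls became 18 higher and 14 lower, and TART-A had −0.03 (adjusted p = 0.6999), TART-B 0.01 (adjusted p = 0.863) and TART-C −0.11 (adjusted p = 0.195). Under this scaling TAHRE remained higher at 1.82 (adjusted p = 0.00116) and HeT-A at 1.19 (adjusted p = 0.00418), and the median ratio gave the same calls. The adjusted p of TAHRE stayed between 0.00110 and 0.0223 over the alternatives that include it, which the filter of 10 RPM does not. That of HeT-A ranged from 0.00251 to 0.0589 and passed 0.05 without Piwi-IP replicate 1 (0.0589) or replicate 2 (0.0532). TART-A lost the call without Piwi-IP replicate 1 (0.0635) or replicate 2 (0.0655), and TART-C did so too (0.0635 and 0.0532). The adjusted p reached 0.725 for TART-A and 0.929 for TART-B with the median ratio, and 0.195 for TART-C with the same TE total.

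**Figure D2:**
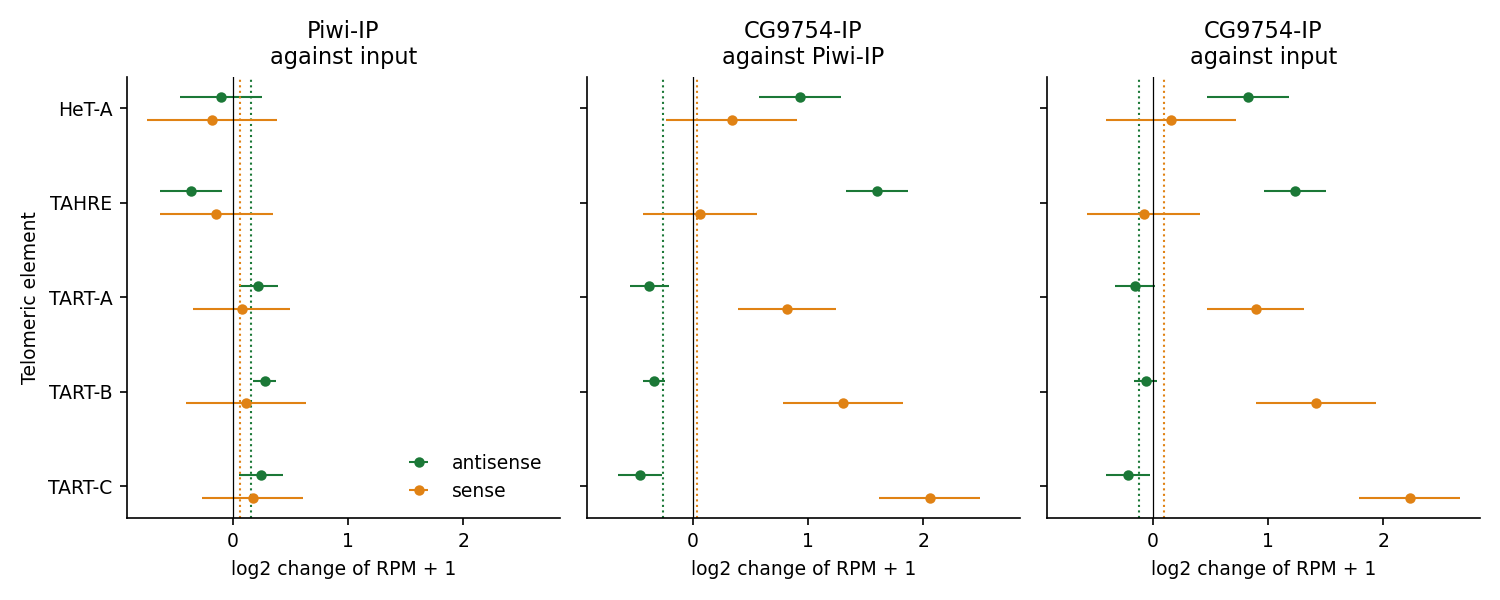
Log2 change of RPM + 1 for each telomeric element in the 3 comparisons, with limma 95% intervals; green is antisense, orange is sense, and the dotted lines mark the median over all 124 TEs on each strand. In both comparisons of CG9754-IP the antisense changes of HeT-A and TAHRE and the sense changes of the TART elements lie right of 0.

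On the sense strand it was the TART elements that rose in CG9754-IP against Piwi-IP. TART-C averaged 10.5 ± 0.91 RPM with CG9754 and 1.77 ± 0.44 RPM with Piwi, 5.92-fold higher (counting interval 4.43 to 8.20), with a log2 change of 2.06 ± 0.17 (adjusted p = 5.11e-04). TART-B had 11.05 ± 0.39 with CG9754 against 3.96 ± 1.19 with Piwi (1.30 ± 0.20, adjusted p = 0.00560), and TART-A 8.94 ± 0.95 with CG9754 against 4.66 ± 0.77 with Piwi (0.82 ± 0.16, adjusted p = 0.0140). HeT-A (0.34, 95% interval −0.23 to 0.90, adjusted p = 0.293) and TAHRE (0.06, −0.43 to 0.55, adjusted p = 0.859) were not called, and these intervals leave room for changes in either direction. On this strand 39.5% of all TEs were called, 28.2% as higher and 11.3% as lower; with the same TE total 35 higher and 14 lower calls became 48 and 5. The calls of TART-B and TART-C were kept under every alternative that could be run, while TART-A lost its call without Piwi-IP replicate 1 (adjusted p = 0.0970, over a range of 0.00478 to 0.0970). With a pseudocount of 10 RPM the changes were 0.80 for TART-C, 0.59 for TART-B and 0.37 for TART-A.

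The strands of an element were also compared with each other. The log2 ratio of sense to antisense, with 1 RPM added to each, rose for TART-C by 2.52 ± 0.19 (adjusted p = 7.36e-04), for TART-B by 1.64 ± 0.19 (adjusted p = 0.00293) and for TART-A by 1.19 ± 0.18 (adjusted p = 0.00525) in CG9754-IP against Piwi-IP. The ratio of TAHRE fell, with a change of −1.54 ± 0.15 (adjusted p = 0.00177), and that of HeT-A was −0.59 ± 0.22 (adjusted p = 0.0880, with a range of 0.0460 to 0.271; 0.0460 without Piwi-IP replicate 2). Of all TEs 54.8% were called, 43.5% with a higher and 11.3% with a lower ratio. Rescaling moved these values little. With the same TE total the values were 2.44 for TART-C, 1.59 for TART-B, 1.15 for TART-A, −1.48 for TAHRE and −0.57 for HeT-A, which alone of the 5 was not called. With a pseudocount of 10 RPM they were 1.26 for TART-C, 0.93 for TART-B, 0.74 for TART-A, −0.40 for TAHRE and −0.18 for HeT-A. TART sense reads per 1000 TART antisense reads, a ratio within a library, were 10.8 and 12.7 in CG9754-IP, 2.48 and 3.53 in Piwi-IP, and 3.18 and 3.21 in input.

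CG9754-IP was also set against input. It shares the CG9754-IP libraries with the comparison just given, so it is no independent repeat of it. TAHRE antisense small RNAs were 3.33-fold higher in CG9754-IP (4.55 ± 0.17 against 1.37 ± 0.28 RPM in input), with a log2 change of 1.23 ± 0.0997 (adjusted p = 0.00305, range 0.00180 to 0.0217). HeT-A was 2.08-fold higher (5.06 ± 0.68 RPM in CG9754-IP against 2.43 ± 0.44 in input), with 0.82 ± 0.13 (adjusted p = 0.0152). HeT-A lost this call without input replicate 1 (adjusted p = 0.0765) or replicate 2 (0.0561), without Piwi-IP replicate 1 (0.0563) or replicate 2 (0.0564), and with only the groups compared in the fit (0.0584), over a range of 0.00615 to 0.0765. With a pseudocount of 10 RPM the changes were 0.36 for TAHRE and 0.28 for HeT-A. Of all TEs 28.2% were called, 8.87% as higher and 19.4% as lower; with the same TE total 11 higher and 24 lower calls became 18 and 11.

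With all 6 libraries in the limma fit, the TART elements were not called on the antisense strand in this comparison. Their changes were −0.16 for TART-A (adjusted p = 0.133), −0.06 for TART-B (adjusted p = 0.256) and −0.21 for TART-C (adjusted p = 0.0890), against a median of −0.12 over all TEs. With the same TE total TART-A turned to 0.03 and TART-B to 0.12. Without CG9754-IP replicate 1 that group had 1 library and added no spread, and the values were −0.24 for TART-A and −0.30 for TART-C. The median of all TEs was −0.23 in that fit. Adjusted p reached 0.673 for TART-A with the same TE total and 0.898 for TART-C with the median ratio.

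On the sense strand all 3 TART elements rose against input, where 41.1% of all TEs were called, 33.1% as higher and 8.06% as lower. TART-C was 7.24-fold higher, with 10.5 ± 0.91 RPM in CG9754-IP and 1.45 ± 0.20 RPM in input (log2 change 2.23 ± 0.17, adjusted p = 3.90e-04). TART-B was 3.13-fold higher (11.05 ± 0.39 in CG9754-IP against 3.53 ± 0.19 in input, adjusted p = 0.00427) and TART-A 2.06-fold higher (8.94 ± 0.95 in CG9754-IP against 4.35 ± 0.22 in input, adjusted p = 0.0117). TART-A lost the call without input replicate 1 (adjusted p = 0.0808) or replicate 2 (0.0655), over a range of 0.00638 to 0.0808. With a pseudocount of 10 RPM the changes were 0.84 for TART-C, 0.64 for TART-B and 0.40 for TART-A. HeT-A (0.15, adjusted p = 0.663) and TAHRE (−0.08, adjusted p = 0.803) were not called.

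The strand ratio against input rose for TART-C (2.44, adjusted p = 8.90e-04), TART-B (1.48, adjusted p = 0.00455) and TART-A (1.05, adjusted p = 0.00983) and fell for TAHRE (−1.32, adjusted p = 0.00279), while 52.4% of all TEs were called, 40.3% with a higher and 12.1% with a lower ratio. HeT-A had −0.67 (adjusted p = 0.0672, range 0.0449 to 0.253). It was called lower without either Piwi-IP library (0.0449 each) and with only the groups compared in the fit (0.0449), and the TART-A call was lost without input replicate 1 (0.0617) or replicate 2 (0.0507). With a pseudocount of 10 RPM the changes were 1.05 for TART-C, 0.70 for TART-B, 0.55 for TART-A, −0.39 for TAHRE and −0.21 for HeT-A.

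**Figure D3:**
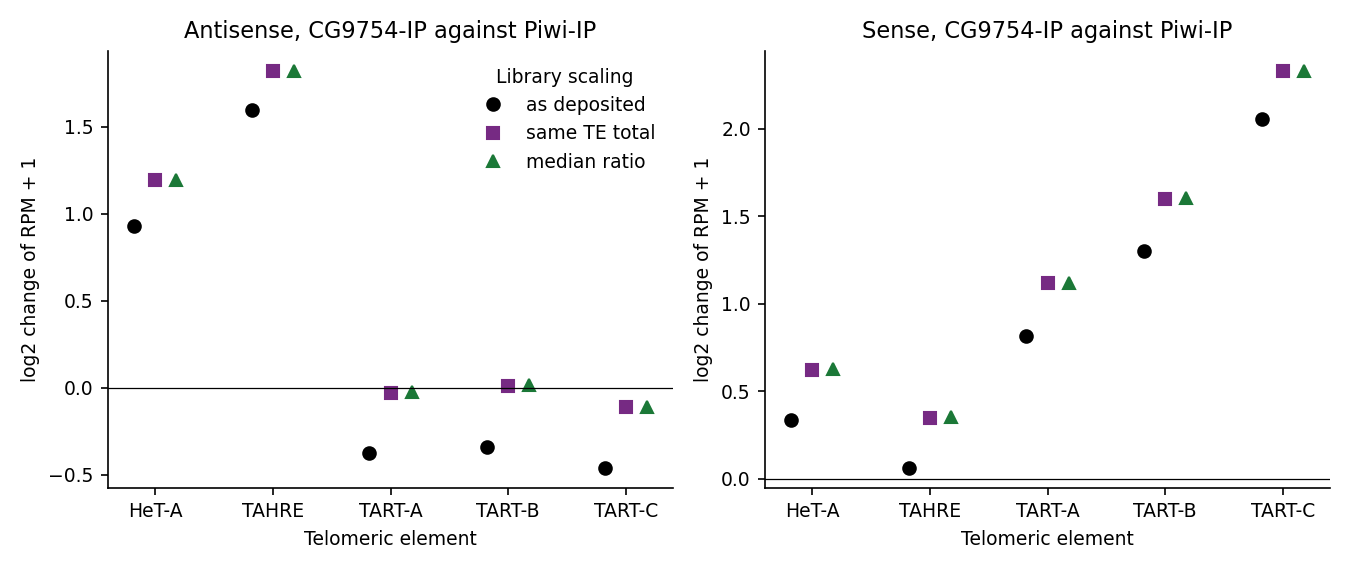
Log2 change of RPM + 1 in CG9754-IP against Piwi-IP for each telomeric element, antisense on the left and sense on the right, with libraries as deposited (circles), rescaled to the same TE total (squares) or rescaled by the median ratio over the TEs (triangles). The antisense TART values move to between −0.11 and 0.01 on rescaling, while HeT-A and TAHRE stay above 0.

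Ratios between the elements within a library do not depend on its scaling. HeT-A antisense reads per 1000 TART antisense reads were 2.04 and 1.85 in CG9754-IP, 0.624 and 0.631 in Piwi-IP, and 0.720 and 0.947 in input. TAHRE reads on the same scale were 1.71 and 1.79 in CG9754-IP, 0.246 and 0.234 in Piwi-IP, and 0.396 and 0.541 in input. For both elements the CG9754-IP libraries were above all others, and the Piwi-IP libraries were below all others. No test was made on these ratios.

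The TART elements kept nearly fixed antisense proportions. TART-C made up 53.8% ± 1.17 of TART antisense RPM in the CG9754-IP libraries, 55.6% ± 0.32 in Piwi-IP and 55.6% ± 0.091 in input. Its share of TART sense RPM was 34.4% ± 1.33 in CG9754-IP, 17.0% ± 0.30 in Piwi-IP and 15.5% ± 1.89 in input, and that of TART-A was 29.3% ± 1.71 in CG9754-IP, 45.2% ± 3.03 in Piwi-IP and 46.7% ± 3.22 in input. In CG9754-IP, then, TART-C stood above TART-A on the sense strand. Their exact Poisson 95% intervals overlapped in each CG9754-IP library, and no test was made on this order. The TART subfamilies, and HeT-A with TAHRE, have sequence in common, and how reads matching several elements were assigned is not given in the sources used here, so values of related rows may hold the same reads.

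All 5 elements together held 1.47% ± 0.063 of the antisense TE signal in CG9754-IP, 1.46% ± 0.015 in Piwi-IP and 1.38% ± 0.015 in input, and 99.6% or more of it was TART in each group. Their share of the sense TE signal was 0.220% ± 0.0045 in CG9754-IP, 0.146% ± 0.0082 in Piwi-IP and 0.157% ± 0.0018 in input. The sums hide the higher values of HeT-A and TAHRE in CG9754-IP. Together they contributed 10.2 and 9.01 antisense RPM in the CG9754-IP libraries, 3.05 and 2.96 in Piwi-IP, and 3.29 and 4.31 in input.

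The other LINEs of the jockey clade, non-LTR relatives that do not form telomeres, served as a comparison; 19 of the 20 listed were in the table. In CG9754-IP against Piwi-IP, 1 of 19 was higher and 6 lower on the antisense strand, with a median log2 change of −0.18 and values from −0.90 to 0.77. HeT-A (0.93) and TAHRE (1.60) lay above that range, and the TART elements lay inside it. Of all TEs, 8.87% were called higher and 33.1% lower on the antisense strand. On the sense strand 3 of 19 were higher and 1 lower, with a median of −0.00 and values from −0.71 to 0.86, below those of TART-B (1.30) and TART-C (2.06). Of all TEs, 28.2% were called higher and 11.3% lower on the sense strand. The 5 telomeric elements had medians of −0.34 on the antisense strand and 0.82 on the sense strand. Of the gypsy-group LTR elements, 7 of 8 were higher on the sense strand, with a median of 2.35 and values from 0.12 to 3.44. The 4 follicle-cell markers were all called higher there, with values from 2.27 to 3.44, above every TART element. No test was made between the lists, and the difference is a description.

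TEs of similar antisense level were compared in the same way, with level ranges chosen after the values were seen. HeT-A and TAHRE are 2 of the 37 TEs with a mean of 1 to 10 antisense RPM over the 6 libraries. Among the other 35, 3 were called higher and 4 lower on the antisense strand in CG9754-IP against Piwi-IP, with a median of −0.09 and a highest value of 1.30. TART-A and TART-B are 2 of 15 TEs between 100 and 1000 RPM, and of the other 13, 4 were called higher and 0 lower by limma on the sense strand, with a median of 0.33 and a highest value of 1.25. On the antisense strand 1 of these 13 was called higher and 9 lower, with a median of −0.52. TART-C is among 29 TEs above 1000 RPM, and 22 of the other 28 were called higher on the sense strand, with a median of 1.67, so the sense rise of TART-C was one of many in that range. On the antisense strand 1 of these 28 was called higher and 17 lower, with a median of −0.37.

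**Figure D4:**
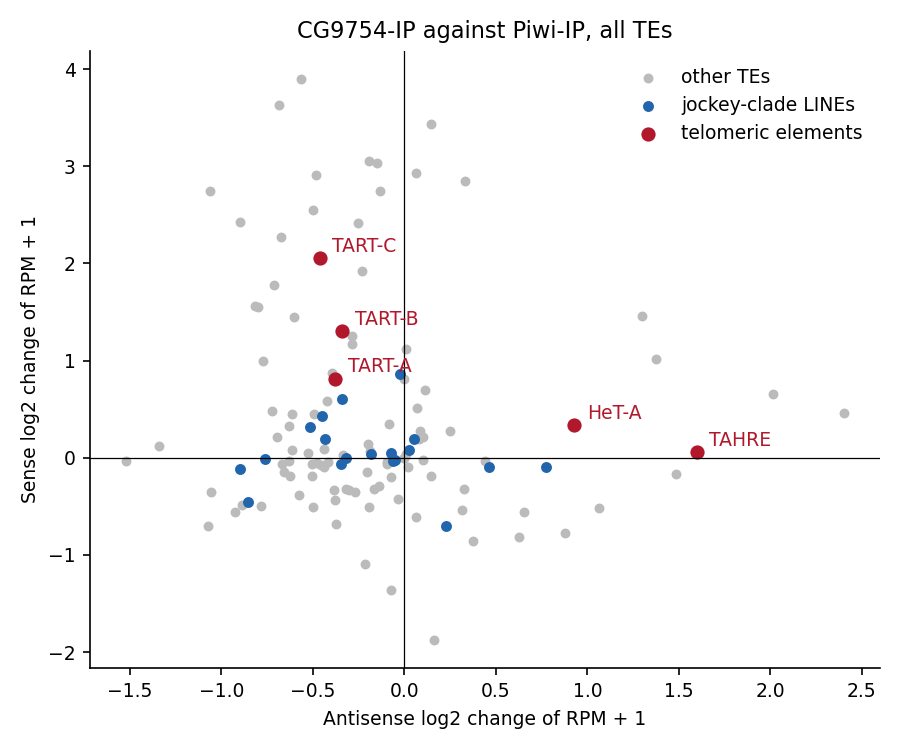
Antisense (horizontal) and sense (vertical) log2 change of RPM + 1 in CG9754-IP against Piwi-IP for all 124 TEs; red points are the telomeric elements, blue points other LINEs of the jockey clade and grey points all other TEs. The TART elements lie at the upper left, and HeT-A and TAHRE at the right near 0 on the sense axis.

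The other TEs listed as germline markers, which are known for piRNAs in germ cells, were not called on the antisense strand in CG9754-IP against Piwi-IP. Of the 6 markers, HeT-A and TAHRE were the 2 called. Burdock averaged 4.73 ± 0.78 RPM with CG9754 and 6.76 ± 0.74 RPM with Piwi. Rt1b (Repbase_Rt1b in the table) averaged 30.9 ± 1.77 RPM with CG9754 and 30.9 ± 0.49 RPM with Piwi. Rt1a (Repbase_Rt1a) had 7.12 ± 0.32 with CG9754 and 6.67 ± 0.15 with Piwi, and Max-element 6.14 ± 1.64 with CG9754 and 6.03 ± 0.64 with Piwi. Against input 4 of the 6 were called higher in CG9754-IP, where 8.87% of all TEs were called higher. The others beside HeT-A and TAHRE were Rt1a (4.74 ± 0.40 RPM in input) and Rt1b (22.2 ± 1.43 RPM in input). Rt1a and Rt1b had about the same levels in Piwi-IP as in CG9754-IP, which HeT-A and TAHRE did not. The part of the germline markers in the telomeric results was not tested.

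The TEs with the most similar antisense profile were sought over the 6 libraries, by the root mean square difference of the centred log2 values, among 107 TEs with at least 1 RPM. For HeT-A these were the copia-type LTR element 1731 (distance 0.19) and the LINE G2 (0.22), which had 24.8 ± 2.88 and 66.8 ± 9.70 RPM with CG9754 and 12.995 ± 0.073 and 38.5 ± 2.97 RPM with Piwi. For TAHRE they were DNAREP1 (Repbase_DNAREP1, 0.28) and 1731 (0.34), and TAHRE itself lay at 0.28 from HeT-A. TART-A was nearest to the LINEs Doc3-element and jockey (0.044 each), TART-B to the LTR elements gypsy2 (0.025) and HMS-Beagle2 (0.047), and TART-C to Doc3-element (0.043) and the LTR element 297 (0.058). TART-A and TART-C lay 0.037 apart. The median distance over all candidates was 0.56 for HeT-A, 0.80 for TAHRE and 0.21 to 0.22 for the TART elements. By this median the TART profiles lay nearer to the other TEs than those of HeT-A and TAHRE did. These distances describe 6 libraries that also share their scaling, and no test was made on them.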

How the data were processed

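Members and lists were chosen with earlier results of these data known. The deposited table gives sense and antisense values per TE, and its header names no unit. They were read as RPM made by the authors, because all values of a library were multiples of its smallest step, to within 0.02 reads, and 1000000 over the step was taken as the library total. Per the submitters' processing notes, the tools were bedtools 2.16.1, SAMtools 0.1.16, Bowtie 0.12.7 and cutadapt 1.0 with the build dm3, and their roles, the size range, mismatches and multi-mapping are not given in the sources used here. The cluster table was not used.

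Values were compared with limma 3.58.1 (R 4.3.3; a mean per group and moderated variances that follow the level) on log2(RPM + 1), with all 124 TEs, no filter on low values and the 6 libraries in 1 fit. Tests are two-sided with Benjamini-Hochberg adjustment over all TEs of a comparison, called under 0.05. On each strand 2 TEs were at 0 in all libraries. Named TEs are the 5 members, the 2 nearest TEs of each, and the follicle-cell and germline marker TEs. The fit was checked on simulated normal values with the same spread for every TE and group. That check did not cover the counting error of low TEs or the larger spread between the CG9754-IP libraries. Other steps used Python 3.11.15, numpy 2.4.6, pandas 2.3.3 and scipy 1.17.1, and plots used matplotlib 3.10.9. Alternatives were pseudocounts of 0.1 and 10, a filter of 10 RPM, both rescalings, a fit of only the groups compared, the replicate block and leaving out each library.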

Additional observations from a re-analysis of the deposited data

How the results depend on the processing

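Counts below are of the 5 telomeric elements called. Depth limits HeT-A and TAHRE, whose antisense values rest on 10 to 145 reads a library, and the pseudocount of 1 RPM is near their level. A planned count test on recovered reads was not run. On the antisense strand in Piwi-IP against input the count was 1, and 0 with a pseudocount of 10, a filter of 10 RPM (3 tested), the same TE total, the median ratio or the replicate block, and 3 with only the groups compared in the fit, where 37 of all 124 TEs were called, against 3 with all groups. In CG9754-IP against Piwi-IP it was 5, and 3 with the filter (3 tested) and 2 with the same TE total or the median ratio. In CG9754-IP against input it was 2, and 0 with the filter (3 tested) and 1 with only the groups compared. Leaving out 1 library gave 0 to 3, 2 to 5 and 1 to 4 elements in these comparisons. Such fits leave 1 library in a group. The number called among all 124 TEs, 3, 52 and 35 with every library, also rose or fell with the library left out. These ranges are therefore not particular to the telomeric elements. The sense and strand ratio counts of the 5 elements stayed within 1.5 times under the alternatives run. With the filter no telomeric element was left on the sense strand.

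The numbers of the labels do not show a shared culture, and deviations of same-numbered libraries correlated by 0.03 to 0.09 on the antisense and −0.13 to 0.26 on the sense strand. Of the calls on elements, the replicate block changed only that of TART-B antisense in Piwi-IP against input (0.28, adjusted p = 0.182).

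The sign turned in 23 cases. Of these, TART-B antisense in CG9754-IP against Piwi-IP had been called (−0.34), and the others had not. With the same TE total and the median ratio the values were 0.0086 and 0.013 for that change. Under the same rescalings the sign also turned for TART-A (0.030 and 0.049) and TART-B (0.12 and 0.14) antisense in CG9754-IP against input, TART-A (−0.056 and −0.045) and TART-B (−0.015 and −0.0046) sense in Piwi-IP against input, and TAHRE sense in CG9754-IP against input (0.073 and 0.087). With a pseudocount of 0.1 it was the strand ratio of TART-C in Piwi-IP against input (0.012). Leaving out 1 library gave, in Piwi-IP against input, −0.24 to 0.025 for HeT-A antisense, −0.45 to 0.089 for HeT-A sense, −0.063 to 0.22 for TART-A sense, −0.13 to 0.36 for TART-B sense, and for the strand ratio −0.34 to 0.19 for HeT-A, −0.42 to 0.096 for TART-B and −0.26 to 0.11 for TART-C. For TAHRE sense it gave −0.16 to 0.28 in CG9754-IP against Piwi-IP and −0.30 to 0.14 in CG9754-IP against input. The cause was not tested.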
